A study of Mus musculus with 2 samples.

Results

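The regions described here are stretches of open chromatin that lie in introns of protein-coding genes beyond intron 1, found in both of 2 libraries of embryonic mouse liver. They were chosen by position and by a peak in each replicate, with earlier results of these data known. Peaks of the 2 longer lists that touched by 1 bp or more were joined, and joined regions to which each replicate gave a peak, called shared, were kept. A region was counted if every transcript start of protein-coding genes was more than 1 kb away and its midpoint fell outside protein-coding exons and inside an intron other than intron 1 of a gene's longest transcript. The longest transcript was taken as the protein-coding transcript with the greatest genomic span. The rule held for 7433 of 45831 shared regions, which is 16.2% (95% Wilson interval 15.9 to 16.6, counting error only), and for 7433 of the 25847 shared regions that were distal to starts.

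DNase-seq, which maps DNA that DNase I can reach, had been applied to liver of mouse embryos at 13.5 days. The mice are labelled as C57BL/6N,129 and as wild type with the A85 YAC, a yeast artificial chromosome, present in multiple copies. Both libraries carry these labels and the same donor label, from separate tissue samples whose sex was not collected, and nothing states whether they are separate litters, so they form 1 group of 2 replicates with no animal lacking the YAC. The insert of the YAC is not named in the labels, and a comparison of the replicates compares 2 libraries.

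Introns hold many of the enhancers of mammalian genes, and an enhancer may act on its host gene or on a neighbour. In the fetal liver, where red cells are made, such enhancers are bound by Gata1 together with the helix-loop-helix factor Tal1 at an E-box spaced a short way from a GATA site, and by KLF factors at CACCC boxes. CTCF, which organizes chromatin loops, binds a longer GC-rich site at many intronic positions.

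Each region below is shown as the plus strand of GRCm38.p6 (mm10), the RefSeq genome sequence, because members with GATA and with CTCF matches differed in how the replicates compare. In the first 6 the capitals mark GATA matches (AGATAA or TGATAA, either strand). The Kcnn4 region at chr7:24377121-24377420 lies in intron 2 of the gene of the Gardos potassium channel, and the Fig4 region at chr10:41204981-41205200 in intron 22 of a phosphoinositide phosphatase gene. The Nprl3 region at chr11:32245681-32245980 lies in intron 6 of a gene that houses enhancers of the neighbouring alpha-globin genes. The Gata2 region at chr6:88203081-88203300 lies in intron 4 of the gene of a stem cell GATA factor. The Zfpm1 region at chr8:122321721-122322020 lies in intron 3 of the gene of FOG1, the partner of GATA1, and the Dcaf6 region at chr1:165396041-165396280 in intron 7. The Zfpm1 and Dcaf6 sequences were added after their values were seen.
Kcnn4: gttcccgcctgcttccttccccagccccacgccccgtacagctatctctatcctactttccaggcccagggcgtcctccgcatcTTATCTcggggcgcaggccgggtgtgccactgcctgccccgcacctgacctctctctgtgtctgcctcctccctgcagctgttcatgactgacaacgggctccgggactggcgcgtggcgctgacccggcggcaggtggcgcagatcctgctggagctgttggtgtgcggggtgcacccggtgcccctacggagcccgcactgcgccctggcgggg
Fig4: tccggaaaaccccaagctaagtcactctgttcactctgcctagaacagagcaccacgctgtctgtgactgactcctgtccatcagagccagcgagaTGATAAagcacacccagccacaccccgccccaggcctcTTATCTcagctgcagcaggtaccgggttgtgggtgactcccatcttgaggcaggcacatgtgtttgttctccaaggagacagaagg
Nprl3: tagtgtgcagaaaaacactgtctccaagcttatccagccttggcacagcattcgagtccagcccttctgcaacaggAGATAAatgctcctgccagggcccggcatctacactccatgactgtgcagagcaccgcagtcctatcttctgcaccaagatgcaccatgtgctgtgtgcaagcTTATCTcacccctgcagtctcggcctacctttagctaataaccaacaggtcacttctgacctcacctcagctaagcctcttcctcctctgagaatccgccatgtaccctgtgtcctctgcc
Gata2: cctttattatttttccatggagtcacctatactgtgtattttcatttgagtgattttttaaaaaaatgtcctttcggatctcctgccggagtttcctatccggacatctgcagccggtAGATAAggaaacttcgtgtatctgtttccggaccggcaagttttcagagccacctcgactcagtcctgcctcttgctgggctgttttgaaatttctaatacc
Zfpm1: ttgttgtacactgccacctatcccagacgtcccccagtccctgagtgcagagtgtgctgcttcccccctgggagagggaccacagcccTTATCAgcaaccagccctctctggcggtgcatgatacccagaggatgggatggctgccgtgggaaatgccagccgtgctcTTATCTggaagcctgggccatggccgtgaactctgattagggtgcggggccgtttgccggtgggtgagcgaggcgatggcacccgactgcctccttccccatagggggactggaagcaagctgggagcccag
Dcaf6: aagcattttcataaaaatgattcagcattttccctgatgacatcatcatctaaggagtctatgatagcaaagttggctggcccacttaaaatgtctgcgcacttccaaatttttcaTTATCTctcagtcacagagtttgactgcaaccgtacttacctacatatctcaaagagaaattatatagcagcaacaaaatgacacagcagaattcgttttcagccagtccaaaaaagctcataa

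In the next 4 the capitals mark the letters AGGGGGC on either strand, the core of the CTCF consensus. The Trim14 region at chr4:46507341-46507540 lies in intron 5, the Kcnn1 region at chr8:70844621-70844820 in intron 10, the Mroh6 region at chr15:75886861-75887060 in intron 4 and the Runx1 region at chr16:92698741-92698920 in intron 2. Positions in introns are those of the midpoint. The midpoints of the Kcnn4, Trim14 and Mroh6 regions lay 11, 13 and 39 bp from an exon, so part of each of these 3 sequences is exonic, and the Mroh6 region of 200 bp is wider than its intron of 183 bp. A match is a description of the letters and not a measured binding site.
Trim14: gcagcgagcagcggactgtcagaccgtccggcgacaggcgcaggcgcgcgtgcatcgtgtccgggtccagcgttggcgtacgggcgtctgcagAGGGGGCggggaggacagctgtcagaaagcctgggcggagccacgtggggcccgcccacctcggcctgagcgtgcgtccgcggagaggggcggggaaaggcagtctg
Kcnn1: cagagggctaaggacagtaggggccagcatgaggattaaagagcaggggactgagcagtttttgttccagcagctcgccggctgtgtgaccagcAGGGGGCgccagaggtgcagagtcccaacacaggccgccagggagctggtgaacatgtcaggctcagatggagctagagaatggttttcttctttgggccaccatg
Mroh6: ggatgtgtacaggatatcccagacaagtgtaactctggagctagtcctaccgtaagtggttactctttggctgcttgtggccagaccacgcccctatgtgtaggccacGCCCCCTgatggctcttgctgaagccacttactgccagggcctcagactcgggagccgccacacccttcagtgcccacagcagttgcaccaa
Runx1: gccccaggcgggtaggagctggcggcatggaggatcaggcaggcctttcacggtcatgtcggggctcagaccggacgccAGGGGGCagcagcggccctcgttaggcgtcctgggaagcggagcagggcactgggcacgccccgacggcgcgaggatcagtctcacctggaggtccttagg

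Of the 6 regions shown with GATA matches, all had the higher value in replicate 1. Values are the deposited signal of the highest peak in the region, whose normalization is not stated; within a library all values were whole multiples of 1 step, so each can be read as a count. The Kcnn4 region had 15.2 in replicate 1 and 8.05 in replicate 2, the Fig4 region 12.3 and 5.14, and the Zfpm1 region 13.2 and 6.68. The Nprl3 region had 8.73 (95% Poisson interval 8.09 to 9.41, 690 counts) and 3.78 (3.49 to 4.09, 626 counts). In the Gata2 region the values were 1.68 (1.41 to 2.00) and 0.736 (0.612 to 0.879), and in the Dcaf6 region 2.95 and 0.344.

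The 4 regions shown with CTCF matches were closer between the replicates. Trim14 had 11.2 in replicate 1 and 9.10 in replicate 2, Kcnn1 had 8.49 and 8.56, Mroh6 had 9.29 and 7.99, and Runx1 had 7.47 and 6.90. The examples are not typical of all members. Of the 20 strongest members named below, those in Jarid2, Cbx7 and Btn1a1 also held a GATA match in the central 200 bp, as did Kcnn4. They were closer between the replicates, with 27.3 and 24.7 in Jarid2, 12.7 and 11.1 in Cbx7 and 8.73 and 7.50 in Btn1a1. Dcaf6 has the most extreme ratio of all, and each of the 6 GATA examples is shifted further to replicate 1 than the median member with a GATA match, for which counts are given below.

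The peak lists held 76130 peaks in replicate 1 and 73852 in replicate 2, with a median of 69 and 126 counts a peak. A shared promoter region was found at 64.6% of all protein-coding genes with a later intron. All 8 erythroid markers read at their starts, among them Gata1, Klf1 and Slc4a1 (band 3), had one, and so did the hepatoblast markers Afp, Foxa3 and Apob, but not Alb and Hnf4a. Of the macrophage markers only Vcam1 and of the endothelial markers only Kdr had one. Some markers of other cells also had one, namely Itga2b and Vwf of megakaryocytes, Snap25 and Rbfox3 of neurons and Actn2 of muscle. Gp9 of megakaryocytes, Gad1 of neurons and Ttn and Myh6 of muscle had none. The erythroid markers had the higher promoter value in replicate 1 throughout, for example 10.1 against 5.05 at Slc4a1 and 5.29 against 2.76 at Klf1. These values are not centred, and the median ratio of replicate 2 to replicate 1 over all shared regions was 0.878. Foxa3 (12.0 against 7.93), Itga2b (9.30 against 7.67) and Vwf (3.29 against 1.81) were higher in replicate 1 as well. So were Apob and Actn2, by less. The remaining markers with a shared promoter region, namely Vcam1, Kdr, Snap25, Rbfox3 and, only slightly, Afp, were higher in replicate 2. In bulk tissue a smaller share of red cell precursors in replicate 2 could not be told apart from less accessibility per cell, and neither was tested.

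The 7433 later-intron regions were spread over 4075 of the 18338 protein-coding genes that have a later intron, which is 22.2%. Of these host genes 2518 held 1 region, 234 held 5 or more and 38 held 10 or more. Of the members 123 lay in later introns of 2 or more overlapping genes, and 117 lay also in intron 1 of another gene. Most were far from any start, at a median of 11813 bp from the nearest protein-coding start and 50192 bp from that of the host gene. For 1023 members, 13.8%, the nearest start belonged to a gene other than the host. No member lay on chromosome Y.

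Later introns held 11.6 shared regions per Mb, against 14.7 per Mb of intron 1, a ratio of 0.788. The ratio was 0.9095 for regions more than 2.5 kb from every start. Counted by position in the gene, intron 1 held 13.8 per Mb, over 234.6 Mb in place of the 221.3 Mb used for the ratio. On that count intron 2 held 12.0 per Mb, intron 3 held 10.8, introns 11 to 20 held 12.1, introns from number 21 on held 9.75, and last introns held 13.4. Intron 2 alone accounted for 23.6% of the members and last introns for 12% of them. Members sat in long introns, with a median host intron of 9572 bp against 1262 bp for all later introns, and they occupied 5855 of 167792 later introns. Within an intron 21.1% of the members lay within 500 bp of an exon, where 14.9% of later-intron bases lie, and 19.7% lay over 10 kb from one, where 33.3% of the bases lie. Neighbours in the same intron were a median of 2720 bp apart, and 30.3% of neighbour pairs lay within 1 kb of each other.

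The members were among the weaker shared regions. The median value was 1.11 in replicate 1 (interquartile range 0.709 to 1.84) and 0.857 in replicate 2 (0.573 to 1.37), which correspond to 88 and 142 counts. First-intron regions had medians of 1.20 and 0.893, intergenic regions 1.14 and 0.936, and promoter regions 2.62 and 2.40. The median member was 200 bp wide, against 280 bp for promoter regions. Peaks of the shorter, stricter lists were present in both replicates at 59.98% of the members and at 71.5% of all shared regions. Across members the log2 values of the replicates had a Pearson correlation of 0.81, which is a description over regions that share the 2 libraries.

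**Figure D1:**
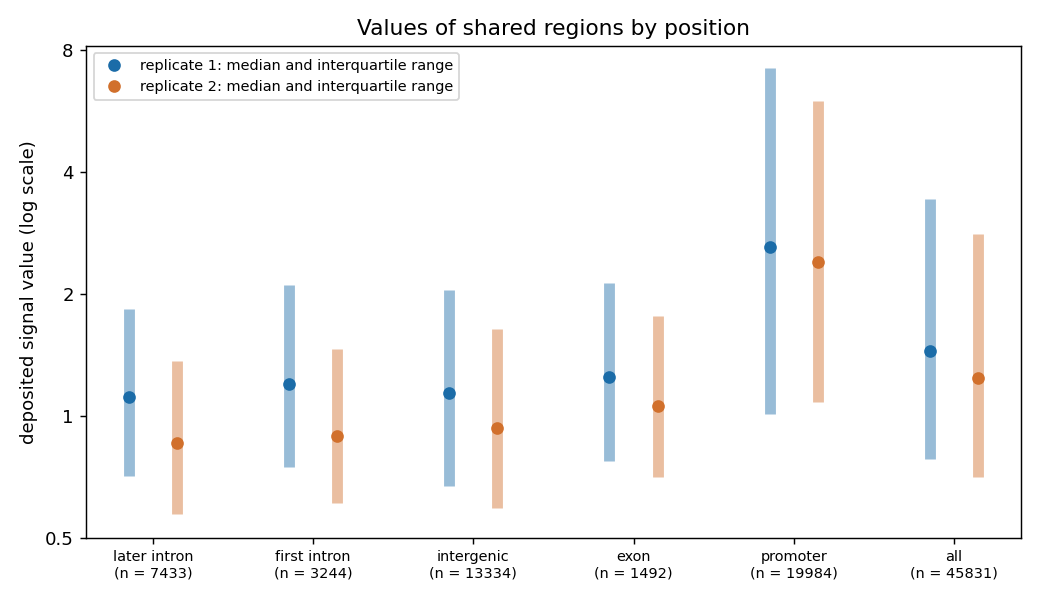
Deposited signal values of shared regions by position, on a log axis, with points for the median and bars for the interquartile range of each replicate. The later-intron medians of 1.11 and 0.857 are the lowest of the positions shown, and replicate 2 is lower than replicate 1 at every position.

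Fgfr2, the gene of a fibroblast growth factor receptor, led the ranking by number with 44 regions, all in intron 2 of a transcript whose span of 2961 kb reaches far beyond the other transcripts of the gene. The nearest start belonged to another gene for 43 of the 44. Their values ran from 0.304 to 9.70 in replicate 1 (median 1.24) and from 0.350 to 7.15 in replicate 2 (median 1.03). When the longest transcript was taken by summed exon length instead, Fgfr2 held 0 later-intron regions. The rank of this gene therefore rests on 1 annotated transcript. Gm37240, a predicted gene spanning 1391 kb, held 17 regions, and all 17 had their nearest start in another gene.

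Gse1, which encodes a protein of histone deacetylase complexes, came next with 27 regions in a single intron of 199.4 kb, and Gse1 itself was the nearest gene to all of them. Values of the Gse1 regions had a median of 2.00 in replicate 1 (0.544 to 11.05) and 1.68 in replicate 2 (0.893 to 6.11). The region with the highest replicate 1 value, 11.05, had 4.57 in replicate 2 and held 3 GATA matches with a composite. The region with the highest replicate 2 value, 6.11, had 7.01 in replicate 1 and no GATA match. The Gse1 intron is intron 2 of the widest transcript, and by summed exon length the count of Gse1 was also 0.

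Itpr2, a calcium channel gated by inositol trisphosphate, came after Gse1 by number and held 20 regions in 9 introns, with a median of 1.18 in replicate 1 and 0.939 in replicate 2, and its paralog Itpr1, further down the ranking, held 11 with 0.823 and 0.664. Both counts were the same with the other choice of transcript. Megf11, which encodes a receptor with repeated EGF domains, held 17 regions up to 9.77 and 4.38, though it had no shared promoter region. Rgs6, a regulator of G protein signalling, also lacked one and held 12 regions up to 9.42 and 5.86.

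The 25 genes with most regions together held 367. Of all shared regions 5.64% were over 2-fold higher in replicate 1 and 3.02% in replicate 2, after centring, and of all members 10.1% and 1.88%. Camta1, a calmodulin-binding transcription activator, held 17 regions with a median of 0.646 in replicate 1 and 0.887 in replicate 2, and 2 of the 17 were over 2-fold higher in replicate 2. Dennd1a held 12 regions with a median of 1.13 in replicate 1 and 0.480 in replicate 2, and 5 of the 12 were over 2-fold higher in replicate 1. Rere, a nuclear receptor corepressor, held 12 with 1.48 and 0.767, and 4 of these were over 2-fold higher in replicate 1.

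Ssh1, a cofilin phosphatase, held 12 regions in 41.5 kb of later intron, 2.89 per 10 kb. Its strongest region, in intron 9 at chr5:113956601-113956800, had 7.77 in replicate 1 and 9.78 in replicate 2, and 24.3% of its 20-base words recur in the assembly. Igf1r, the receptor of insulin-like growth factor, held 11 regions, and its region in intron 2 at chr7:68129081-68129420 had 13.1 and 9.05. The remaining Igf1r regions had values of at most 4.20 in replicate 1 and 3.53 in replicate 2. Fig4 held 10 regions with medians of 1.96 and 1.01.

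Runx1, which encodes a factor required for blood stem cells, held 10 regions, all in intron 2, an intron of 130 kb. The highest, the CTCF-matching region shown above, was nearly level between the replicates. Of the others, the regions starting at 92715581, 92801641 and 92822141 on chromosome 16 had 5.43, 5.24 and 4.89 in replicate 1 and 2.64, 2.62 and 2.15 in replicate 2. The remaining 6 had values of at most 2.84 and 1.74. Pde4d held 14 regions, Nav2 15, Ccdc88c and Mboat2 13 each, Ank3, Wwox and Snd1 12 each, and 2900026A02Rik, Dapk1, Trappc9 and Snx29 11 each. By summed exon length Pde4d and Wwox held 0, Nav2 held 4, Snx29 7, Ank3 8, Trappc9 10 and Camta1 13.

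**Figure D2:**
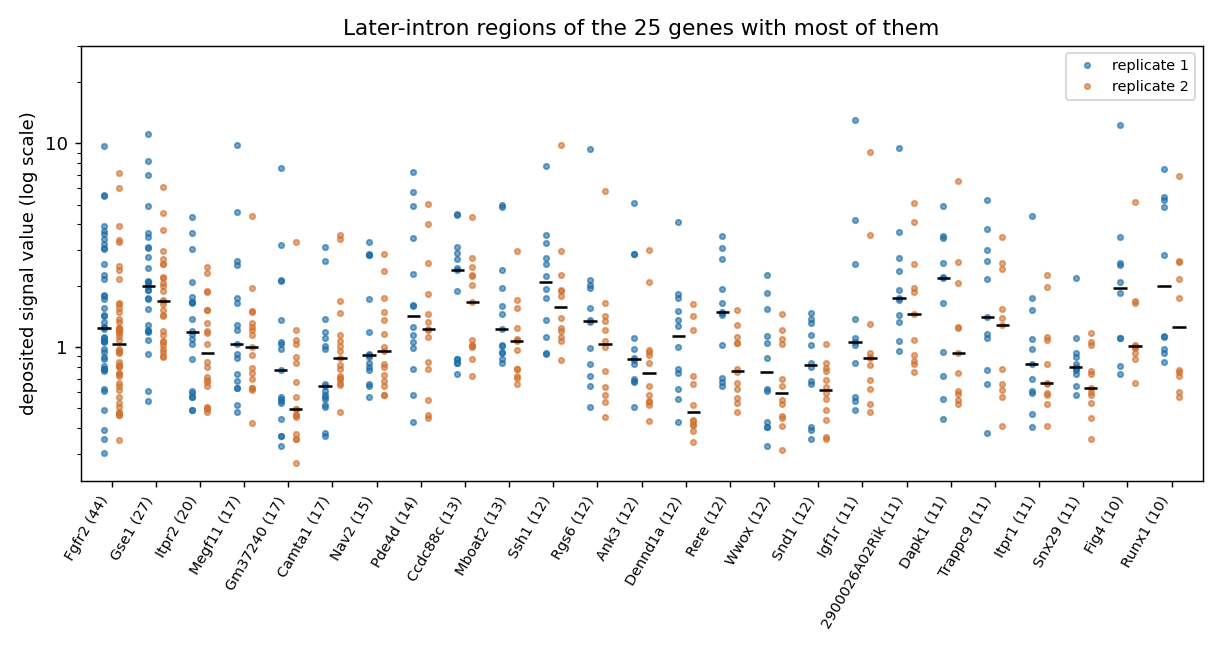
Each point is 1 later-intron region of the 25 genes with most of them, in replicate 1 and replicate 2, on a log axis of the deposited signal value, with a black line at the median of each gene and the number of regions in brackets. Values within a gene spread widely, as in Gse1 from 0.544 to 11.05 in replicate 1, and Dennd1a and Rere have visibly lower medians in replicate 2.

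Relative to the length of later intron, Slc4a1, the gene of band 3, the anion exchanger of the red cell membrane, was the densest of the genes with 5 or more regions. It held 5 regions in 6.7 kb, 7.46 per 10 kb, in introns 9, 13, 16, 17 and 19. All 5 were weak, from 0.494 to 1.10 in replicate 1 and from 0.634 to 0.857 in replicate 2, none was in the shorter lists of both replicates, and none held a GATA match in its central 200 bp. Tram1, a subunit of the translocation machinery of the endoplasmic reticulum, followed at 4.25 per 10 kb. Of its 5 regions 3 were over 2-fold higher in replicate 1, against 10.1% of all members and 5.64% of all shared regions. A GATA match lay in the central 200 bp of 4 of the 5. The same ranking named Jade2, Sema4b, Foxk1, Unc13a, Ttc39a, Cdkl1, Ksr1, Myo18a, Prdm11 and Nsmaf, at 1.58 to 2.76 per 10 kb.

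Zfpm1 was also among the 15 densest genes, with 6 regions in 25 kb, 2.40 per 10 kb. Their values ran from 2.53 to 13.2 in replicate 1 and from 2.20 to 6.68 in replicate 2, and the lowest of them exceeded the median of all members by more than 2-fold. GATA matches lay in the central window of 5 of the 6. A further 4 shared regions lay in intron 1 of Zfpm1, and its promoter region had 22.5 and 20.3.

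Among the 20 strongest members whose median 31-base word occurs once in the assembly, a Jarid2 region of partly repeated sequence, given below, stood first. Next came Itpkb, an inositol trisphosphate kinase gene, whose region in intron 2 at chr1:180387521-180387760 had 18.6 (17.7 to 19.6) in replicate 1 and 12.3 (11.8 to 12.9) in replicate 2. It lay 53655 bp from the nearest start. The region of Cbx7, a Polycomb protein gene, in intron 2 had 12.7 and 11.1, that of Myo18a, an unconventional myosin gene, 14 and 10.8, and that of Prdm2, a histone methyltransferase gene, 13.4 and 10.7. The others lay in Gm20517, Myh7b (2 regions), Mnt, Trim14, Igf1r, 3110082I17Rik, Kcnn1, Kcnn4, Mroh6, Arid1b, Elf2, Ssh1, Btn1a1 and Def6, down to 11.01 and 7.29 in Def6. Of the 20, 7 lay within 100 bp of an exon of the host transcript.

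Some strong members lay at starts that a second annotation records. Prdm2's region overlapped a RefSeq mRNA start, that of Mroh6 lay 22 bp from one and that of Mnt 114 bp, although each lay over 1 kb from every protein-coding start used in the rule. Over all members 160 lay within 1 kb of a RefSeq mRNA start, 2.15% (1.85 to 2.51), against 6.47% of first-intron regions and 2.45% of intergenic regions. Among the 160 members with a lower value of 4 or more it was 9 regions, 5.63% (2.99 to 10.3).

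Regions of repeated sequence held the highest values of all. The region in intron 19 of Zc3h7a at chr16:11144171-11144320 had 63.0 in replicate 1 and 51.6 in replicate 2, and its median 31-base word occurs 4 times in the assembly. The region in Gm10722, a predicted gene, had 32.6 and 30.6 with a median word count of 44, and that in intron 2 of Gphn had 29.3 and 24.0 with 3. Jarid2, a Polycomb cofactor gene, held a region in intron 3 at chr13:44869561-44869700 with 27.3 and 24.7. Its median 31-base word occurs once, but 61.2% of its 20-base words recur, and a second Jarid2 region 200 bp further on had 11.4 and 10.6 with a median word count of 5. Further such regions lay in Peak1, Xpnpep3, Tex14, Zc3h7a and Mid1, down to 2.65 and 3.89 in Mid1. By the 31-base measure 84 members, 1.13%, were repeated, and by the 20-base measure 262. Reads that match several places may add to such values, and their part was not tested.

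Matches to 23 consensus motifs were counted on both strands in the 200 bp around each midpoint, and beside them in windows 1 kb to either side and in 138620 windows of the same length tiled over every 25th later intron. GATA matches were found in 27.5% of the members (26.5 to 28.5), against 18.1% of the side windows, 22.7% of the tiled windows and 16.99% of all shared regions. First-intron regions stood at 30.7%, intergenic regions at 21.01% and promoter regions at 7.75%. The composite of CTG, 7 to 9 bases and GATAA was found in 7.08% of the members (6.52 to 7.68), against 1.78% of the side windows and 1.86% of the tiled windows, and in 4.02% of all shared regions. Base composition also differed between these sets, though the GATA shares did not rise or fall steadily with it. Members had a mean GC content of 51.6%, the side windows 46.3% and promoter regions 63.2%, and the part of GC content in the shares was not tested.

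The CTCF letters AGGGGGC showed the largest ratio of members to side windows of the 23 motifs, 5.30. They were found in 14.5% of the members (13.7 to 15.3), 2.73% of the side windows, 1.69% of the tiled windows and 13.5% of all shared regions. First-intron regions were lower, at 9.99%. The CACCC box CCNCNCCC was found in 26.9% of the members and 17.3% of the side windows, with 40.8% over all shared regions. The E-box (CAGCTG or CAGATG, whose letters may form part of a composite) was found in 30.8% and 25.2%, with 25.4% over all shared regions. Letters of liver factors differed less or the other way, with Forkhead TGTTTAC in 2.41% of the members and 2.46% of the side windows, and HNF1 TTAATNATT in 0.390% and 0.996%. GATA and CTCF matches seldom met in 1 region, at 145 members, while 4459 members held neither.

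**Figure D3:**
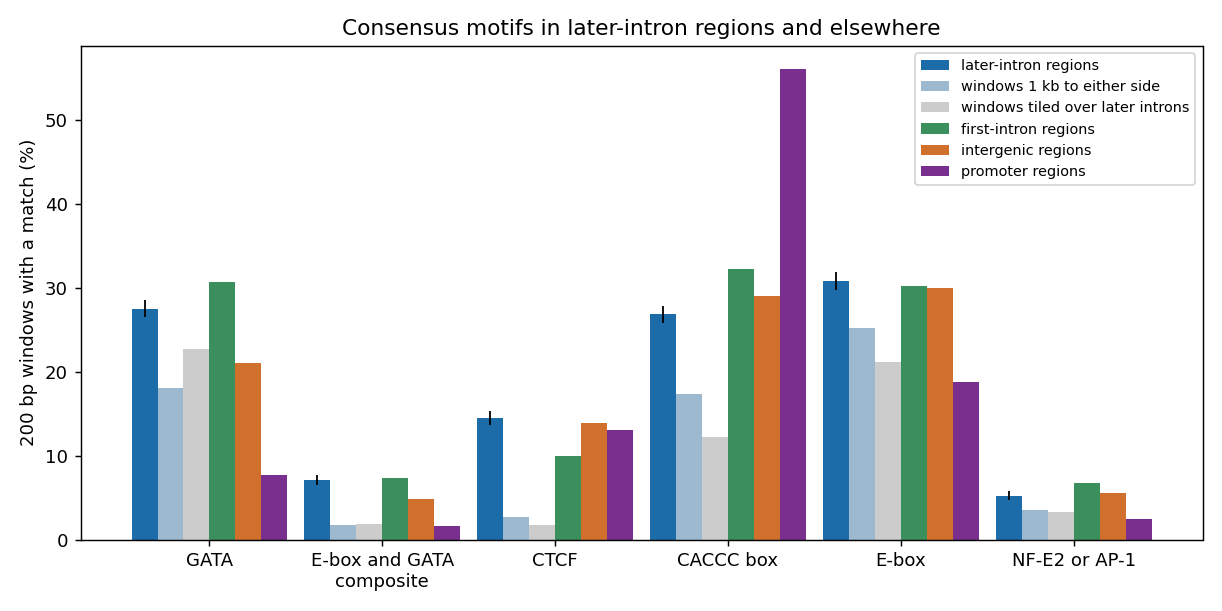
Share of 200 bp windows with a match to each of 6 consensus motifs, in later-intron regions (with the 95% Wilson interval), in control windows and in shared regions of other positions. The later-intron bars exceed both kinds of control window for every motif shown, most for CTCF at 14.5% against 2.73%.

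The motif content differed by the strength of the region. CTCF letters were held by 10.6% of the 1545 members whose lower value was under 0.5, by 17.5% of those from 1 to 2 and by 26.9% of the 160 with a lower value of 4 or more. CACCC boxes were held by 23.6% of the lowest band and 40.6% of the highest. GATA matches stayed between 27.0% and 28.1% in the 4 bands below 4 and stood at 17.5% above it.

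Members with and without GATA matches differed in how the replicates compared. The log2 ratio of replicate 2 to replicate 1, with the median of all shared regions set to 0, had a median of -0.10 over the members. It was -0.58 in the 2042 members with a GATA match and 0.04 in the 5391 without, -0.80 in the 526 with a composite, and 0.13 in the 1077 with CTCF letters. In values, GATA members had medians of 1.37 in replicate 1 and 0.794 in replicate 2, and members without GATA had 1.03 and 0.881. The median of the GATA members thus lay above that of the rest in replicate 1 and below it in replicate 2, so the replicates differed in direction.

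Counted past 2-fold, 747 members were higher in replicate 1, 10.1% (9.39 to 10.8), against 5.64% of all shared regions, and 140 were higher in replicate 2, 1.88% (1.60 to 2.22), against 3.02%. Of the 747, 492 held a GATA match, 65.9% (62.4 to 69.2), and 194 a composite. Of the 140, 12 held a GATA match, 8.57% (4.97 to 14.4), and 4 a composite. CTCF letters were in 3.21% of the 747 and in 11.4% of the 140. Members whose values were within 2-fold held GATA matches at 23.5%.

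The same was seen outside later introns and at regions of 1 library. GATA-matching regions had a median ratio of -0.65 in introns 1, -0.46 in intergenic regions and -0.22 at promoters. Later-intron regions with a peak in replicate 1 alone numbered 7479 and held GATA matches at 39.1% (38.0 to 40.2). Those with a peak in replicate 2 alone numbered 3714 and held them at 11.5% (10.5 to 12.6). Shares of CTCF letters in these regions were 5.76% and 6.09%.

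Members higher in replicate 1 had a median GC content of 49% and those higher in replicate 2 of 53.8%. By GC content, the median ratio with a GATA match and without was -0.46 and -0.10 below 45% GC, -0.76 and -0.06 from 45% to 50%, -0.58 and 0.09 from 50% to 55%, -0.48 and 0.09 from 55% to 60%, and -0.42 and 0.09 from 60% on. The shares over 2-fold higher in replicate 1 were 26.5% and 9.12% below 45% GC, 34.3% and 6.61% from 45% to 50%, and 20.9% and 4.50% from 50% to 55%. They were 13.6% and 2.33% from 55% to 60% and 2.22% and 1.05% from 60% on, where 45 members held a match. The shares over 2-fold higher in replicate 1 were thus smallest from 60% GC on, though with a match they were highest from 45% to 50%. The shares over 2-fold higher in replicate 2 went the other way without a match, from 1.55% below 45% GC to 3.77% from 60% on. With a match they were at most 0.870%. Erythroid markers at promoters were also higher in replicate 1, as given above, and the parts of GC content and cell makeup were not tested. The difference is between 2 libraries and has no replicate check.

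**Figure D4:**
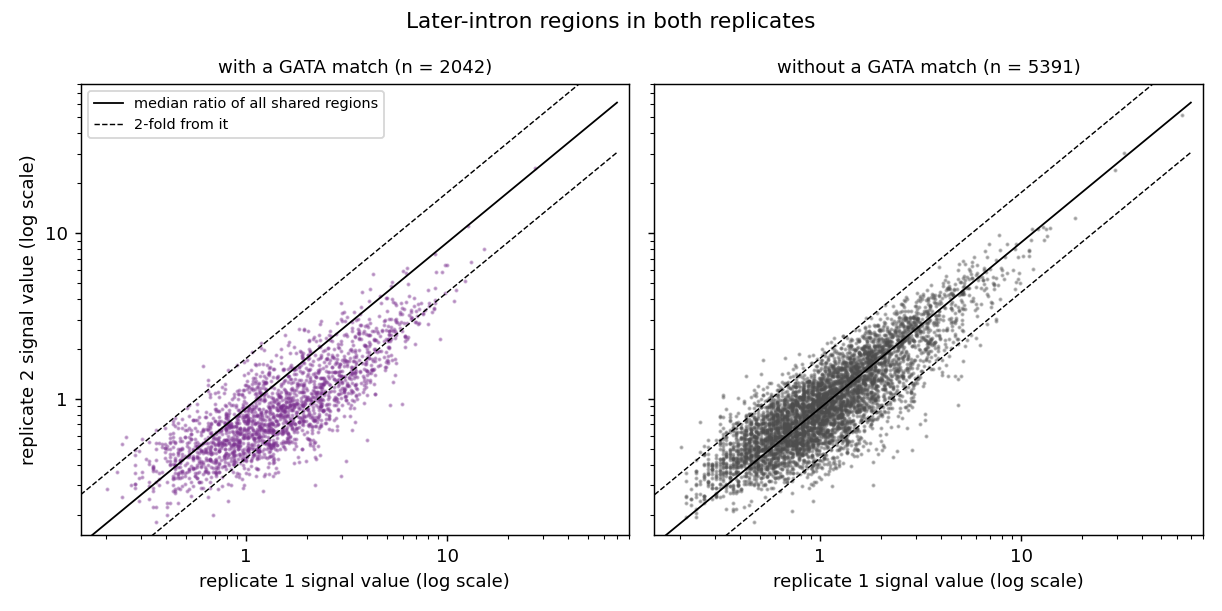
Signal value of every later-intron region in replicate 1 against replicate 2, on log axes, split by a GATA match in the central 200 bp; the solid line marks the median ratio of all shared regions and the dashed lines 2-fold from it. With a GATA match 24.1% of the regions fall below the lower dashed line, and without one 4.73%.

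The 5 members most shifted to replicate 1 lay in Dcaf6, Sfmbt2, Thsd7b, Pip4p2 and Samd4, and all held at least 1 GATA match. Samd4 had 5.94 in replicate 1 and 0.936 in replicate 2, and Pip4p2, a phosphoinositide phosphatase gene, had 3.97 and 0.561. The 5 most shifted to replicate 2 lay in Cdk14, Patj, Mapk8ip1, Trit1 and Gnao1, and none held a GATA match. Gnao1, a G protein subunit gene, had 0.519 in replicate 1 and 1.71 in replicate 2, and Trit1, a transfer RNA modifying enzyme gene, had 0.329 and 1.06.

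Footprints, short protected stretches within a peak, of both replicates overlapped in 4854 members, 65.3% (64.2 to 66.4), against 66.4% of all shared regions and 58.8% of first-intron regions. The share followed the value, from 21.7% of members with a lower value under 0.5 to 100% of those at 4 or more. Members with CTCF letters had overlapping footprints at 76.9%, those with GATA matches at 59.7% and those without GATA at 67.4%. These groups differed in value as well, with medians in replicate 1 and replicate 2 of 1.16 and 1.07, 1.37 and 0.794, and 1.03 and 0.881. They were not matched by value, and its part in these shares was not tested. Within the 8682 overlapping footprints of members, extended by 5 bp, CACCC boxes were found in 8.01%, CTCF letters in 7.89%, E-boxes in 4.35% and GATA matches in 4.01%. Over the footprints of all shared regions the shares were 16.3%, 5.30%, 2.64% and 1.73%.

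Host genes of later-intron regions were also described by their promoters. Of the 4075 host genes 77.2% (75.9 to 78.4) had a shared promoter region, against 64.6% of all genes with a later intron. The share stood at 61.0% in genes with 0 later-intron regions, 74.9% with 1, 82.4% with 3 or 4 and 92.1% (79.2 to 97.3) with 10 or more. Length moved with number, from a median of 25.6 kb of later intron in genes with 1 region to 258 kb in those with 10 or more. Among genes with 20 to 50 kb of later intron, 79.6% of hosts and 69.0% of the other genes had a shared promoter region, and among genes over 150 kb these were 75.04% and 53.8%.

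Red cell genes held more members per length of later intron than all genes did. These densities pool the later introns of all genes of a list, and lists were not matched to all genes by length. The lists were chosen with earlier results of these data known. Over all protein-coding genes there were 1.16 regions per 100 kb, and counts of genes below are of those with a later intron. Of 25 erythroid transcription factor genes 12 held at least 1 member, with 37 regions and 3.02 per 100 kb. Foxo3, a forkhead factor of red cell maturation, held 8, from 1.23 to 6.16 in replicate 1 and 0.887 to 2.97 in replicate 2. Ikzf1, the lymphoid and erythroid factor Ikaros, held 6, up to 5.80 and 3.35, and Zfpm1 is described above. In this list 22 of the 37 regions held a GATA match, 59.5%, against 27.5% of all members. The median ratio between the replicates was -0.44, against -0.10 over all members. Of the 37, 6 were over 2-fold higher in replicate 1, against 10.1% of all members. The shift was not particular to this list, with -0.81 in the 2 hepatoblast regions, -0.48 in blood stem and progenitor genes and -0.32 in chromatin regulator genes. Red cell membrane and receptor genes stood at -0.31, heme and iron genes at -0.28 and terminal maturation genes at -0.12. The other lists below 0 lay between -0.14 and -0.05. The stellate list and the 1 macrophage region lay above 0, at 0.16 and 0.52.

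Of 25 genes of the red cell membrane and receptors 11 held a member, with 24 regions and 4.10 per 100 kb. Cd47, the signal that protects red cells from engulfment, held 6. Its region in intron 4 at chr16:49839721-49840060 had 8.13 in replicate 1 and 3.61 in replicate 2 with a composite. Sptb, the gene of beta spectrin, held 3, up to 3.94 and 3.04.

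Heme and iron genes held members in 7 of 28, which is 25% against 22.2% of all genes, with 2.95 regions per 100 kb. The most were in Tmem14c, which moves heme precursors in mitochondria, with 3 up to 2.16 and 1.25, and in Steap3, a ferric reductase gene, with 2 up to 2.05 and 1.49. Slc11a2, an iron transporter gene, held 1 with 1.78 in replicate 1 and 2.49 in replicate 2. Genes of terminal maturation held members in 9 of 23, with 2.56 per 100 kb, most in Atg7 with 4 and Fbxo7 with 3. Blood stem and progenitor genes held them in 11 of 20, with 1.95 per 100 kb. Runx1 led this list, followed by Msi2 with 7 and Ikzf2 with 3, and 16 of the list's 35 regions held a GATA match.

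Megakaryocyte and platelet genes held members in 5 of 16, with 3.08 per 100 kb. Vwf, the gene of von Willebrand factor, held 4, and the highest, in intron 6, had 9.62 in replicate 1 and 5.31 in replicate 2. Rab27b held 5 and Selp 2. Chromatin regulator genes, used as a broadly expressed list, held members in 12 of 30 with 1.43 per 100 kb. Arid1b, a chromatin remodelling subunit, held 9, up to 10.9 and 7.90, and Tet3 and Kdm2b held 3 each.

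Genes of hepatic, macrophage, granulocyte, endothelial and mesenchymal cells lay below the density of all genes. Hepatoblast genes held members in 2 of 24, Nr1h4 (the bile acid receptor FXR) and Trf (transferrin), with 0.594 per 100 kb. Adult hepatocyte genes held them in 3 of 23 with 0.827 per 100 kb, among them Ass1 with 2 regions and Cps1 with 1. Macrophage genes held 1 region in 19 genes, in Mrc1, and granulocyte and mast cell genes held 0 in 15. Endothelial genes held members in 5 of 18 with 0.917 per 100 kb, among them Flt1 with 3 and Flt4 and Erg with 1 each, and stellate and mesenchymal genes in 5 of 16 with 0.966, among them Pdgfrb and Reln with 2 each and Acta2 with 1. Lymphoid genes, with members in 5 of 17 and 1.27 per 100 kb, were close to all genes, with 3 regions in Pax5 and 2 each in Ptprc and Tcf7.

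Genes of nerve and muscle held members as well. Neural genes held them in 8 of 16, above the 22.2% of all genes, but with a median of 148 kb of later intron a gene they had only 0.366 regions per 100 kb. Rbfox3 held 8, up to 1.16 and 1.26, Mbp held 6, and Nrxn3, a synaptic adhesion gene, held 6 with 1 of 8.62 in replicate 1 and 3.48 in replicate 2. Heart and skeletal muscle genes held them in 6 of 15 with 0.811 per 100 kb, led by Ryr2 with 8, Ryr1 with 4 and Dmd with 4. In both lists, as in the endothelial and stellate lists, the share of genes with a member lay above that of all genes and the density below it.

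**Figure D5:**
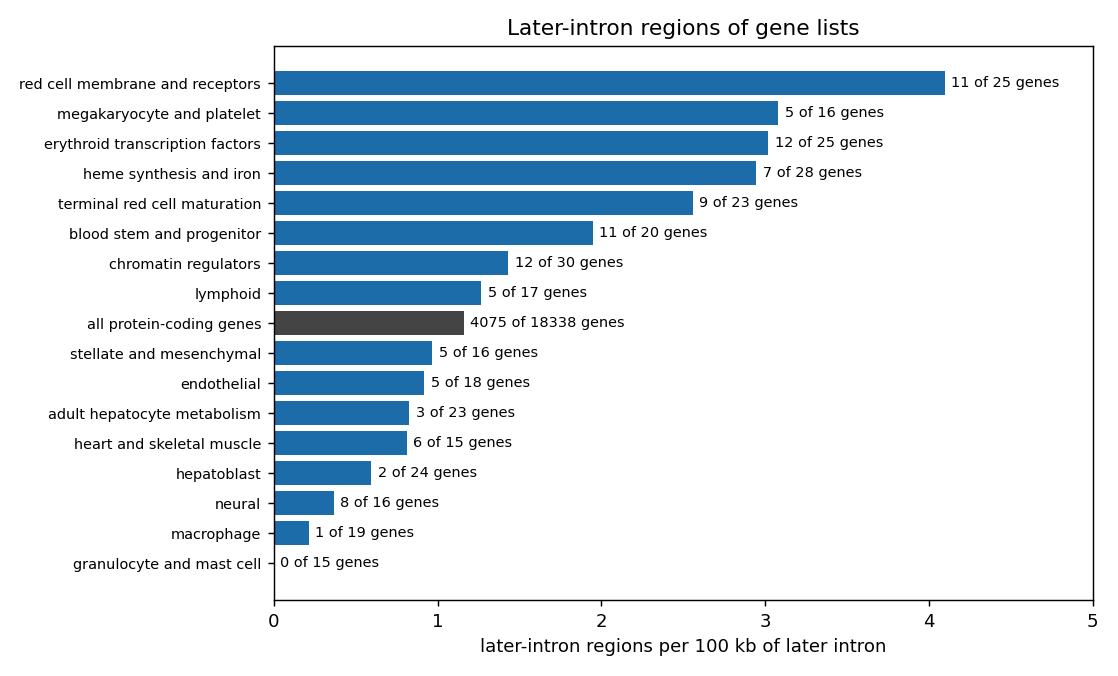
Later-intron regions per 100 kb of later intron for 16 gene lists and for all protein-coding genes (dark bar), with the number of genes holding at least 1 region beside each bar. Red cell lists lie between 2.56 and 4.10, the megakaryocyte and platelet list at 3.08, and all genes at 1.16. The hepatoblast, macrophage, granulocyte and neural lists lie below 0.6.

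Genes known for intronic enhancers were looked up whatever their values. No enhancer coordinates were used, and whether the regions are those enhancers was not tested. The Nprl3 region shown above was joined by a second in intron 6 at chr11:32247122-32247328, with 1.71 in replicate 1 and 1.38 in replicate 2 and no GATA match. Bcl11a, which encodes a repressor that acts in globin switching, held 3 regions in intron 2. Those starting at 24129441 and 24136098 on chromosome 11 had 3.08 and 2.97 in replicate 1 and 1.59 and 1.09 in replicate 2, and the one starting at 24101621 had 0.658 and 0.501. The Gata2 region in intron 4 held 3 overlapping footprints. Lmbr1, which houses the limb enhancer of Shh, held 1 region in intron 5 at chr5:29293301-29293500, with 1.05 (0.837 to 1.30) in replicate 1 and 1.21 (1.05 to 1.39) in replicate 2, and whether it is that enhancer was not tested.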

How the data were processed

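DNase-seq peaks and footprints of 2 libraries were used as deposited, on mm10 per the labels. In the deposited peak lists each peak has a signal, on a scale that is not stated; the longer of 2 lists a library was used. Every line of the authors' footprint lists carries the p-value 0.01, read as their threshold. Each list came from the filtered alignment of its own library, per the submitters' notes, which name neither aligner nor callers. The deposited FDR values were not used.

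Genes came from GENCODE vM21, sequence and further mRNA starts from RefSeq GRCm38.p6. The longest transcript is the protein-coding one of greatest genomic span. A region's value is that of its highest peak in a replicate. Dividing by each library's step (0.0127 and 0.00604) gave whole counts for 100% of values, within 0.05 of a step; library totals are unknown. Python 3.11.15, numpy 2.4.6, pandas 2.3.3, scipy 1.17.1, numba 0.67.0 and matplotlib 3.10.9 were used. No test was run, since there is 1 group. Intervals are 95% Wilson (shares) or Poisson (values) and cover counting error only. The classes were tested on 2000 simulated regions, 100% of which came out in the class they were made with.

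The remaining motifs were NF-E2 or AP-1 TGAGTCA, RUNX TGTGGT, ETS AGGAAG and CCGGAAG, HNF4 CAAAGTCC, C/EBP TTGCNNAA, NFI TGCCAA, YY1 AAGATGGC, NRF1 GCGCATGCG, SP1 GGGGCGGGG, CREB TGACGTCA, STAT TTCNNNGAA, IRF GAAANNGAA, NF-Y AGCCAAT, TEAD GGAATG and MEIS TGACAG.

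Named were the 25 genes with most regions, the 20 strongest regions whose median 31-base word occurs once and the 10 strongest others, the 3 genes with most regions of each list, Nprl3, Bcl11a, Gata2 and Lmbr1, the 5 largest ratios in each direction, and the 15 densest genes with 5 or more regions. The Zfpm1 and Dcaf6 sequences were chosen after their values were seen. Markers read at their starts come from a list of cell type markers, and single values of some genes are not reported here. The members and lists were chosen with earlier results of these data known.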

Additional observations from a re-analysis of the deposited data

How the results depend on the processing

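With the shorter peak lists the number of later-intron regions was 4453, their share of shared regions 13.6%, the median values 1.52 and 1.21, overlapping footprints 83.8%, and 14 of the 25 genes with most regions stayed among them; 390 members were over 2-fold higher in replicate 1 and 69 in replicate 2. The share was 15.3% with the transcript of greatest summed exon length, 18.3% with starts and exons of protein_coding transcripts only and 14.1% at more than 2.5 kb from every start. An overlap of 50% of each peak gave footprints of 72.0% and GATA matches of 25.7%. The density ratio of later to first introns was 0.8425 with that overlap and 0.9095 at more than 2.5 kb from every start. Values not centred gave 1138 members higher in replicate 1 and 49 in replicate 2. Taking 1 replicate's peaks at a time gave 11147 to 14912 regions, a share of 15.7% to 20.15%, median values of 0.696 in replicate 1 and 0.640 in replicate 2, a density ratio of 0.675 to 0.764, footprints of 32.6% to 43.6%, GATA matches of 22.2% to 33.3%, 11 to 13 of the 25 genes, 12 to 15 genes of the erythroid transcription factor list and 11 to 14 of the membrane list. The causes were not tested. The median ratio of members with GATA minus those without was -0.62, and -0.72 to -0.62 under the 6 alternatives run. The alternatives for replicate ratios and gene lists, and the 20-base words, were chosen after seeing the data. No paired analysis was possible because both replicates belong to 1 group. Counts behind a region (median 88 and 142 in members) limit single regions more than the medians.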
